A study of Mus musculus with 10 samples.

Results

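The mouse genome names many of its zinc-finger genes *Zfp* followed by a number. Of the 24453 genes in the deposited count table, 363 carried such a symbol, with *Zfp36* and the names starting *Zfp36l* left aside because they belong to another family of zinc-finger proteins. The 94 genes described here (25.9% of the 363) were selected on their level: each had at least 10 CPM, read counts divided by the library total and multiplied by 1000000, in at least 2 of the 10 libraries. Of the other numbered symbols, 98 had no read in any library and the rest stayed below the threshold. The selection used the level in either IT-PN type, so the levels below are a description and not a finding.

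The study compared intratelencephalic projection neurons (IT-PNs) of layer 5 in the primary motor cortex (M1) that do or do not express *Fezf2*. All animals were male *Fezf2-Gfp* mice, hemizygous on a Swiss Webster background, of the strain (Zfp312-EGFP)CO61GsatMmnc, in which a transgene drives GFP from the *Fezf2* regulatory region. The tracer CTB (cholera toxin subunit B) coupled to a far-red Alexa dye was injected into the left M1 at postnatal day 23 to 25, and layer 5 of the right M1 was taken at postnatal day 28 to 32. By FACS, cells with GFP and CTB became the *Fezf2+ve* sample and cells with CTB alone the *Fezf2−ve* sample of the same animal, which gave 5 libraries of each type from 5 animals. Fewer *Fezf2−ve* than *Fezf2+ve* cells were sorted on average. *Zfp312* is an old name of *Fezf2*, which had 1 read, in *Fezf2+ve* library 5.

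Most proteins of this family bind DNA through tandem C2H2 fingers, short loops in which a pair of cysteines and a pair of histidines hold a zinc ion. Many also carry a KRAB box at the amino terminus, which recruits the corepressor Trim28 and with it the H3K9 methyltransferase Setdb1 and HP1 proteins, and this arm of the family silences transposable elements and maintains imprints. Members without a KRAB box have varied roles in transcription, RNA binding and neural development.

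All libraries were shallow. Total reads on genes were 118134, 107643, 118069, 151591 and 203379 in *Fezf2+ve* libraries 1 to 5, and 167916, 89138, 168711, 211368 and 217738 in *Fezf2−ve* libraries 1 to 5. The *Fezf2−ve* library was the deeper one in 4 of 5 animals (exact permutation test of paired totals, two-sided, p = 0.1875, where 0.063 was the smallest p that 5 animals allow). A count of 3 reads, taken as the limit that a count of 0 allows, was worth 13.8 to 33.7 CPM. These limits and all counting intervals cover counting error only, since reads amplified by PCR without molecular identifiers can be copies of a single molecule.

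At this depth the threshold was a low one. In *Fezf2−ve* library 2, the shallowest, a single read was worth 11.2 CPM, so that all 51 selected genes with a read there passed 10 CPM in it, 26 of them with 1 read. Just inside the threshold, 9 genes tied at a second highest level of 11.2 CPM, among them *Zfp407* and *Zfp229*, and just outside were *Zfp811* and *Zfp618*, at 9.83 CPM. *Zfp229* was selected on 3 reads in all. *Zfp169*, which the study names, had 1 read, in *Fezf2+ve* library 2, and was not among the selected genes.

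The 94 genes held 14769 of the 1553687 reads on genes (0.951%), from 3 to 2984 reads each with a median of 19.5, against a median of 24 over the 7409 genes that passed the same filter. Of the 94, 56 had fewer than 30 reads summed over the libraries and 17 had at least 100. A read was found in a median of 5 libraries, against 6 over all tested genes. Only 7 genes (*Zfp148*, *Zfp532*, *Zfp804b*, *Zfp868*, *Zfp536*, *Zfp608* and *Zfp385a*) had a read in 10 libraries, or 7.45%, beside 12.3% of all tested genes, and *Zfp664*, *Zfp280d* and *Zfp638* had one in 9. At the other end, 28 genes had a read in 2 or 3 libraries.

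The threshold was reached in libraries of both types by 67 genes, in *Fezf2+ve* libraries alone by 4 (*Zfp383*, *Zfp512*, *Zfp442* and *Zfp955b*) and in *Fezf2−ve* libraries alone by 23. Genes that passed through 1 type had to be higher in it. No gene was at 0 in all *Fezf2−ve* libraries, whereas 6 were at 0 in all *Fezf2+ve* libraries: *Zfp869*, *Zfp729a*, *Zfp87*, *Zfp777*, *Zfp622* and *Zfp229*. The 5 other than *Zfp869* had 3 to 14 reads in the *Fezf2−ve* libraries, with means under 22.6 CPM, the *Fezf2+ve* limit averaged over single libraries, so no fold is given for them. The most reads among these 5 were those of *Zfp729a*, a KRAB gene picked out after its values had been seen, with 6, 2, 1, 5 and 0 in *Fezf2−ve* libraries 1 to 5. Like the others it passed through *Fezf2−ve* libraries alone, so its direction was fixed by the selection. For the counts by type in this paragraph, no share over all tested genes is given. The *Fezf2−ve* library was also the deeper one in 4 of 5 animals.

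**Figure D1:**
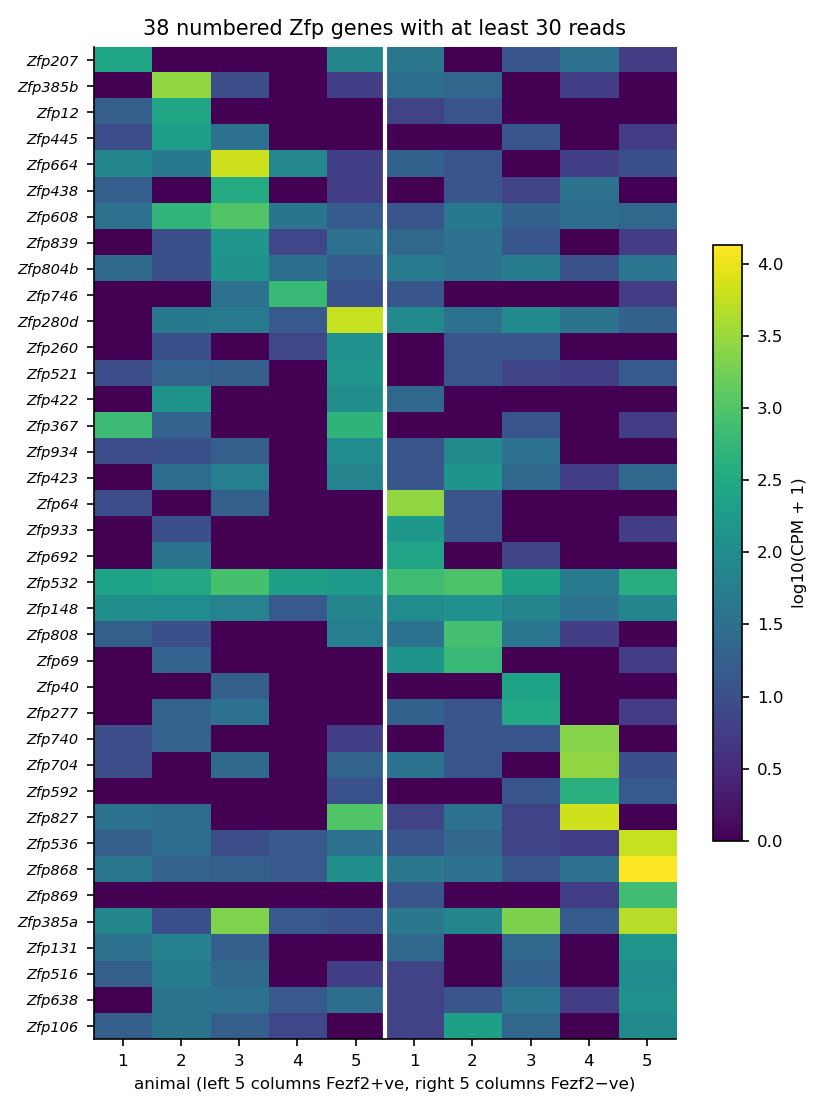
Level of the 38 genes with at least 30 reads, as log10(CPM + 1), in the 5 *Fezf2+ve* (left) and 5 *Fezf2−ve* libraries (right), ordered by the library that held most reads of the gene. Single bright cells in otherwise dark lines are genes with most of their reads in 1 library, whereas *Zfp148* and *Zfp532* have reads in all 10.

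As the heat map of the genes with at least 30 reads shows, most lines held 1 bright library, and the bright libraries differed from gene to gene.

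The proteins were of several kinds. In the longest coding sequence of each gene (GENCODE M21 on GRCm38, which is mm10), 89 genes held at least 1 C2H2 finger by pattern, with a median of 10 over all 94 and a maximum of 32 in *Zfp142*. No finger was found in 5 genes (*Zfp704*, *Zfp608*, *Zfp839*, *Zfp609* and *Zfp365*). A KRAB box was found by pattern in 44 genes, with a median of 12 fingers, and not in the other 50, with a median of 5.

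KRAB genes gave fewer reads. Their median was 14 reads in 4 libraries, against 39 reads in 6 libraries for the genes without the box. Divided by length, the median level was 2.78 CPM per kb of transcript for KRAB genes and 4.95 CPM per kb for the others. That scale need not suit these libraries, which were made to read the 3′ part of transcripts. The study also reports a high share of reads in introns, and the span of each gene was not taken into account. Of the 17 genes with at least 100 reads, 4 were KRAB genes. Whether the groups differ was not tested.

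Numbered *Zfp* neighbours were counted whether or not they carry a KRAB box. Another numbered *Zfp* gene of the table lay within 100 kb of 30 of the 44 KRAB genes and of 5 of the other 50. Whether these shares differ was not tested. The 94 genes were spread over 19 chromosomes, with 11 on chromosome 7, 10 on chromosome 8 and 9 on chromosome 17.

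The fingers of the genes on which the following results turn are shown here, each as the coding stretch of its first finger, 5′ to 3′, with the 4 codons of the zinc-binding cysteines and histidines in capitals. *Zfp148* was the least uneven of the 94, *Zfp868*, *Zfp536*, *Zfp827* and *Zfp664* had most of their reads in 1 library, *Zfp385a* stands for the wider finger of RNA-binding type, and *Zfp869* and *Zfp69* had the smallest p between the types.
Zfp148: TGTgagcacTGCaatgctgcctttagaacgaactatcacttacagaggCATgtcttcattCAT
Zfp868: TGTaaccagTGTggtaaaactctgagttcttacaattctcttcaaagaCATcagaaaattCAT
Zfp536: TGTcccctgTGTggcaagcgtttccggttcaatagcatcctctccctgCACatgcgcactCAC
Zfp827: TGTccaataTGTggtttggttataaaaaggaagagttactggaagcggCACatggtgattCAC
Zfp664: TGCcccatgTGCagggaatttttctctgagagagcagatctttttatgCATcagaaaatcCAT
Zfp385a: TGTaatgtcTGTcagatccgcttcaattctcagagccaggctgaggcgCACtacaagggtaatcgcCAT
Zfp869: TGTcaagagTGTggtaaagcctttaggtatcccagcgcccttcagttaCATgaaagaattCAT
Zfp69: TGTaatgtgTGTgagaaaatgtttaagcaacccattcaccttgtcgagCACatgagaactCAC
The stretch of *Zfp385a* measures 69 bases and the other 7 measure 63 bases.

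A few regulators were detected in all or nearly all libraries. *Zfp148* encodes a factor that binds GC-rich promoter sequences and lies on chromosome 16 (33380836 to 33504363, plus strand). It had 13, 11, 8, 2 and 15 reads in *Fezf2+ve* libraries 1 to 5 and 17, 11, 12, 7 and 17 in *Fezf2−ve* libraries 1 to 5, or 73.4 ± 38.2 and 81.4 ± 33.9 CPM (mean ± SD, n = 5 each). Library 4 was the lowest of each type, and the types overlapped. The library with the most reads held 15.0% of them, and the fitted log2 fold change of *Fezf2+ve* over *Fezf2−ve* was −0.24 (SE 0.93).

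*Zfp532* encodes a partner of Zmynd8 in the Z3 complex, a chromatin reader module that also contains Zfp592 and Zfp687. It had 29, 33, 99, 32 and 34 reads in the *Fezf2+ve* and 116, 83, 38, 10 and 81 in the *Fezf2−ve* libraries. The reads were within a narrow range in 4 *Fezf2+ve* libraries, *Fezf2+ve* library 3 stood above them, and the *Fezf2−ve* libraries lay on either side. The log2 fold change was −0.08 (SE 1.21), between −0.71 and 0.36 when each animal was left out in turn. Of its partners, *Zfp592* had 0, 0, 0, 0 and 2 against 0, 0, 2, 88 and 3 reads, so that *Fezf2−ve* library 4 held 92.6% of them, and *Zfp687* had 5 reads and was not tested.

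*Zfp804b* is a paralogue of *Zfp804a*, whose human counterpart lies at a schizophrenia risk locus. It had 3, 1, 15, 5 and 3 reads in the *Fezf2+ve* and 8, 3, 9, 2 and 9 in the *Fezf2−ve* libraries, whereas *Zfp804a* had 5 reads in all and was not tested. *Fezf2+ve* library 3 was the highest and the types overlapped. *Zfp638* encodes a nuclear DNA- and RNA-binding protein that takes part in splicing and in silencing of retroviral DNA. It had 0, 4, 4, 2 and 6 reads against 1, 1, 7, 1 and 26, with its maximum in *Fezf2−ve* library 5 and the types overlapping.

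**Figure D2:**
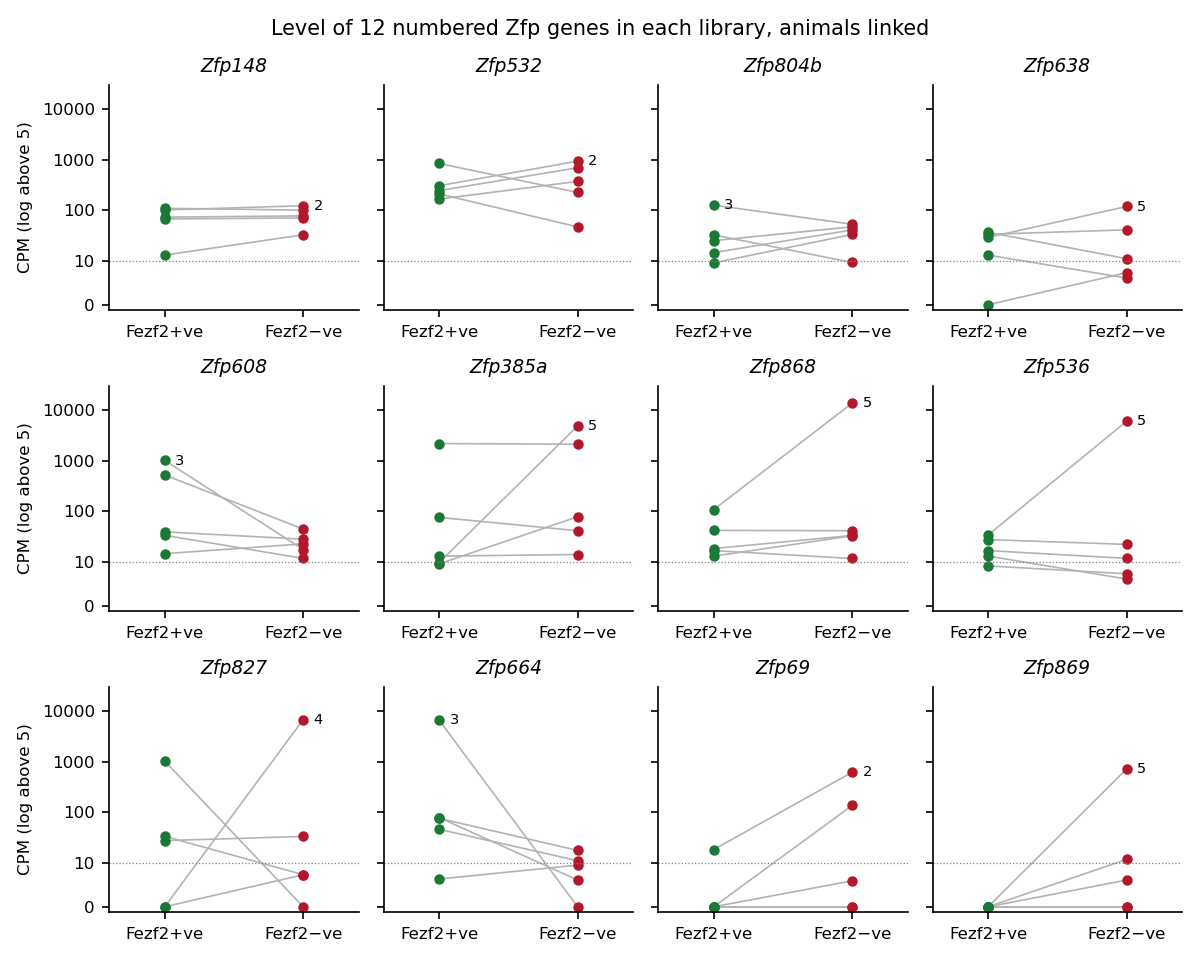
Level in CPM (log scale above 5 CPM, linear below) of 12 genes in each library, with the *Fezf2+ve* and *Fezf2−ve* libraries of an animal linked by a line and the animal of the highest library numbered (dotted line, 10 CPM). *Zfp148* runs from 13.2 to 123 CPM, *Zfp868*, *Zfp536*, *Zfp827* and *Zfp664* each have 1 library at least 5 times above the next, and in none of the 12 are the types apart.

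The plot of 12 genes by library sets the widely detected genes beside those with a single high library.

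Genes with known roles in the nervous system formed a list of 17, of which 16 matched a gene of the table and 10 passed the filter, with 13 to 1319 reads in 3 to 10 libraries. Fitted log2 fold changes ran from −1.87 to 2.09, with 3 above and 7 below 0 and a median of −0.18, beside −0.16 over all tested genes. None of the 10 had an unadjusted p under 0.05 by edgeR, beside 3.89% of all tested genes, a share at which a count of 0 among 10 says nothing about the list.

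In this list *Zfp608*, a relative of the Integrator partner *Zfp609*, had the highest fold change. It had 4, 56, 119, 6 and 3 reads in the *Fezf2+ve* and 2, 4, 3, 6 and 5 in the *Fezf2−ve* libraries. *Fezf2+ve* libraries 2 and 3 stood far above the rest, the other 3 lay among the *Fezf2−ve* libraries, and the log2 fold change was 2.09 (SE 1.29, edgeR quasi-likelihood test, unadjusted p = 0.120, higher in *Fezf2+ve* in 4 of 5 animals). That fold change was between 1.26 and 2.81 when each animal was left out in turn. *Zfp609* itself had 18 reads, in 7 libraries.

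*Zfp536*, a repressor of retinoic acid-driven neuronal differentiation, had 2, 3, 1, 2 and 7 against 2, 2, 1, 1 and 1298 reads. *Fezf2−ve* library 5 held 98.4% of the total and the other 9 libraries were alike at 1 to 7 reads. The log2 fold change of −0.43 (SE 1.57) became 0.68 without animal 5. Of the large EBF-binding pair, *Zfp521* had 1, 2, 2, 0 and 29 against 0, 1, 1, 1 and 3 reads, and *Zfp423* had 0, 3, 7, 0 and 14 against 2, 12, 4, 1 and 5. *Zfp521* was highest in *Fezf2+ve* library 5 and *Zfp423*, in CPM, in *Fezf2−ve* library 2, and both overlapped between types.

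Among 12 genes that act on RNA or translation, 7 passed the filter, with 5 to 1691 reads. *Zfp385a* encodes an RNA-binding protein known for placing mRNA in dendrites and for acting with p53. It had 9, 1, 255, 2 and 2 reads in the *Fezf2+ve* and 7, 7, 354, 3 and 1051 in the *Fezf2−ve* libraries. High counts came from both libraries of animal 3 and from *Fezf2−ve* library 5, and the remaining 7 had at most 9 reads.

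Its paralogue *Zfp385b* had 0, 295, 1, 0 and 1 against 5, 2, 0, 1 and 0 reads, nearly all in *Fezf2+ve* library 2. *Zfp207*, whose product binds microtubules at kinetochores and takes part in splicing, had 32, 0, 0, 0 and 15 against 7, 0, 2, 7 and 1. *Zfp106*, needed in motor neurons and muscle, had 2, 4, 2, 1 and 0 against 1, 19, 4, 0 and 20. These 3 overlapped between types. *Zfp622*, a factor of ribosome maturation, had 0 *Fezf2+ve* and 5 *Fezf2−ve* reads, which allows no fold. Fitted log2 fold changes of the other 6 ran from −1.31 (*Zfp385a*) to 1.50 (*Zfp385b*), with a median of −0.24, beside −0.16 over all tested genes. Both ends moved with the settings. With each animal left out in turn, *Zfp385a* ran from −2.285 to −0.32 and *Zfp385b* from −0.41 to 3.42. *Zfp385b* was at 5.17 without the block and at 5.20 after downsampling to the smallest library. None of the 7 had an unadjusted p under 0.05 by edgeR, beside 3.89% of all tested genes.

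Of 7 KRAB genes known for imprints or retroelements, 2 passed the filter. *Zfp445*, which maintains imprints together with Zfp57, had 1, 22, 4, 0 and 0 against 0, 0, 2, 0 and 1 reads. *Zfp568*, a repressor of a placental *Igf2* transcript, had 1, 2, 1, 0 and 2 against 1, 1, 2, 0 and 5. *Zfp445* was highest in *Fezf2+ve* library 2, *Zfp568* was low in all 10, and both overlapped between types. *Zfp57* and *Zfp809*, which silences retroviruses, stayed below the filter.

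Many of the genes with the most reads had most of them in a single library. The 3 genes with the most reads (*Zfp868*, *Zfp385a* and *Zfp827*) held 6305 reads, 42.7% of those on the 94, and the 8 with the most held 73.7%. Among the 38 genes with at least 30 reads, the highest library held a median of 74.9% of the gene's reads, beside 57.6% over the 3275 tested genes with as many reads. Over 90% lay in 1 library for 12 of the 38 (31.6%), beside 16.7% of the tested genes. With at least 100 reads the medians were 95.4% for 17 genes and 76.7% for 1418. These are counts beside counts, and whether the numbered *Zfp* genes differ from genes of like level was not tested.

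The ERCC spike-ins come from no animal or sort and are given for scale only. Their CPM were scaled to the ERCC total of each library, so differences between libraries in ERCC share do not enter. For the 41 ERCC transcripts with at least 30 reads, the highest library held a median of 20.3% of the summed CPM. For the 38 genes, with CPM scaled to the gene total, that median was 78.5%. At least 100 reads were found for 33 of the 41 but 17 of the 38. The 26 tested genes of other zinc-finger families (Zbtb, Zkscan, Zfhx, Klf and Ikzf), a list chosen after the data had been seen, had a median of 72.1% of reads in 1 library among the 13 with at least 30 reads.

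**Figure D3:**
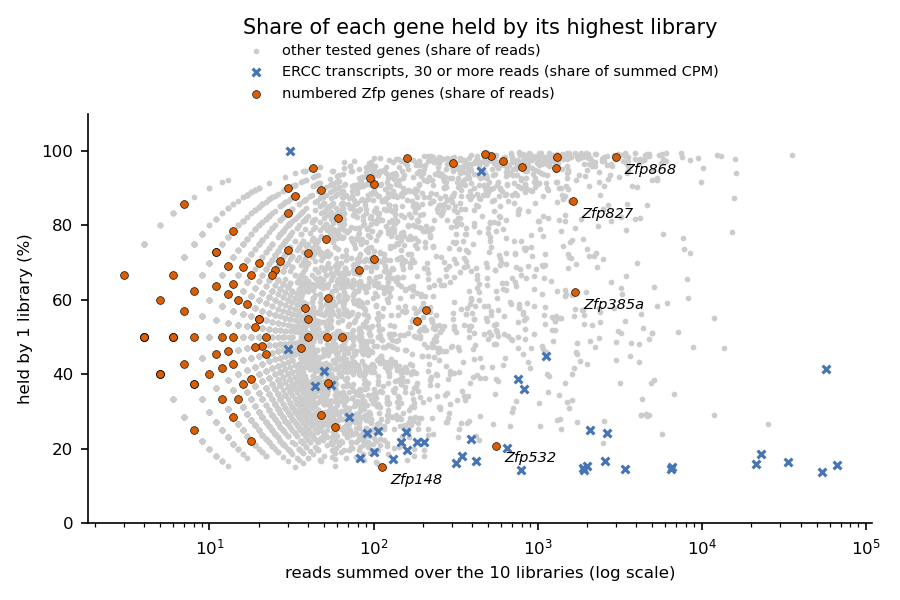
Share of each gene's total held by its highest library (y, percent) against reads summed over the 10 libraries (x, log scale), for the 94 numbered *Zfp* genes, the other tested genes and the ERCC transcripts with at least 30 reads. Gene shares are of reads, and ERCC shares are of CPM scaled to the ERCC total of each library. Several numbered *Zfp* genes with over 100 reads sit above 90%, *Zfp148* sits at 15.0%, and most ERCC transcripts lie near 20%.

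As the plot of shares against reads shows, the numbered *Zfp* genes lay within the cloud of other genes, and those with over 100 reads were mostly near its top edge. With 10 libraries of equal depth, an even gene would hold 10% in each.

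The single high libraries were not the same from gene to gene. *Zfp868*, a KRAB gene, had 5, 2, 2, 2 and 22 against 7, 3, 2, 7 and 2932 reads, with 98.3% in *Fezf2−ve* library 5. *Zfp827*, whose product brings the NuRD complex to telomeres, had 4, 3, 0, 0 and 208 against 1, 3, 1, 1410 and 0. *Zfp280d*, a relative of the fly insulator protein Su(Hw), had 0, 5, 6, 2 and 1230 against 16, 3, 15, 8 and 4. The maximum was thus in *Fezf2−ve* library 5, *Fezf2−ve* library 4 and *Fezf2+ve* library 5.

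*Zfp664* had 9, 5, 766, 12 and 1 against 3, 1, 0, 1 and 2 reads, with its maximum in *Fezf2+ve* library 3. *Zfp704*, a glucocorticoid-induced gene, had 1, 0, 3, 0 and 4 against 6, 1, 0, 597 and 2. *Zfp740* had 1, 2, 0, 0 and 1 against 0, 1, 2, 515 and 0. The last 2 shared *Fezf2−ve* library 4 as their maximum with *Zfp827* and *Zfp592*.

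The most uneven gene was *Zfp64*, whose product binds the promoter of the *Kmt2a* (MLL) gene. It had 1, 0, 2, 0 and 0 against 473, 1, 0, 0 and 0 reads, 99.2% in *Fezf2−ve* library 1. Against the 3 *Fezf2+ve* reads the read rate was 129-fold higher in *Fezf2−ve* (95% counting interval 43.9 to 629), and the whole of that ratio was library 1. Without animal 1 its fitted log2 fold change of −2.56 (SE 2.78) became 0.46.

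Over all 94 genes, the library with the most reads was a *Fezf2−ve* one for 53 and a *Fezf2+ve* one for 41, beside 55.9% and 44.2% of all tested genes. *Fezf2−ve* library 5 held the most reads of 19 genes and *Fezf2−ve* library 1 of 17, whereas *Fezf2+ve* library 1 and the shallow *Fezf2−ve* library 2 did so for 2 each. The number of the 94 genes with a read was 39, 57, 50, 27 and 53 in the *Fezf2+ve* and 64, 51, 65, 35 and 51 in the *Fezf2−ve* libraries. Both libraries of animal 4 were the lowest of their type.

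Summed over the 94 genes, the level was 2015, 5453, 12150, 1293 and 9347 CPM in the *Fezf2+ve* and 5431, 3803, 3989, 12780 and 26580 CPM in the *Fezf2−ve* libraries. The medians of the types, 5453 and 5431 CPM, were nearly equal and the ranges overlapped. The most abundant gene made up 24.5% to 64.7% of the sum and was a different gene in each of the 10 libraries. Without it, the sums were 1346, 2713, 5658, 693 and 3299 CPM against 2614, 2872, 1891, 6113 and 13110 CPM.

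**Figure D4:**
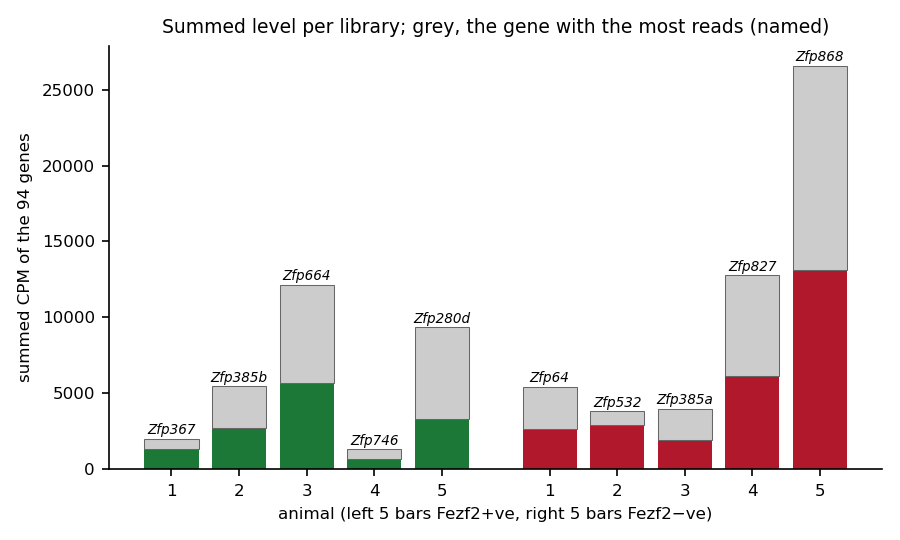
Summed level in CPM of the 94 genes in each library, with the most abundant gene of that library in grey and named above its bar. *Fezf2−ve* library 5 is the highest at 26580 CPM, of which *Zfp868* makes up 50.7%, and *Fezf2+ve* library 4 is the lowest at 1293 CPM.

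The bars of summed level show 10 different leading genes, among them *Zfp367* in *Fezf2+ve* library 1, *Zfp746* in *Fezf2+ve* library 4 and *Zfp532* in *Fezf2−ve* library 2.

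Libraries also differed in other cell markers and in spike-in share. The ERCC share of all counts was 46.7%, 9.04%, 6.44%, 12.6% and 8.51% in the *Fezf2+ve* and 24.8%, 27.1%, 6.52%, 9.81% and 2.79% in the *Fezf2−ve* libraries. All 12 of 12 microglia markers had a read, led by *Ctss* with 817, and their sum was 254, 176.5, 93.2, 66 and 123 CPM in the *Fezf2+ve* against 6420, 4633, 6840, 1646 and 3968 CPM in the *Fezf2−ve* libraries. Every *Fezf2−ve* library was above every *Fezf2+ve* library.

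Of 10 projection neuron markers 9 had a read, led by *Camk2a* with 588, and *Tbr1* was at 0. Their sum was 601, 437, 263, 26.4 and 88.5 CPM against 101, 112, 3325, 52 and 41.3 CPM, higher in *Fezf2+ve* in 3 of 5 animals. In *Fezf2−ve* library 3, *Camk2a* gave 529 of the 561 reads behind the sum. *Slc17a7*, the vesicular glutamate transporter of cortical excitatory neurons, had 11 reads.

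Astrocyte markers were seen as well. Of 8 astrocyte markers 7 had a read, led by *Slc1a2*, with *Gfap* at 0, and the sum was 753, 7608, 644, 1682 and 462 CPM against 721, 236, 88.9, 3799 and 45.9 CPM. *Fezf2+ve* library 2 was the highest and *Fezf2−ve* library 5 the lowest. The 3 highest sums each came mostly from 1 gene. *Slc1a2* gave 778 of the 819 reads in *Fezf2+ve* library 2 and 791 of 803 in *Fezf2−ve* library 4. *Slc1a3* gave 238 of 255 in *Fezf2+ve* library 4.

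Interneuron and endothelial markers were sparse. Of 6 interneuron markers 3 had a read, led by *Gad2* with 6, with *Slc32a1*, *Pvalb* and *Vip* at 0, and the sum was 0, 0, 0, 0 and 4.92 CPM against 0, 44.9, 11.9, 4.73 and 13.8 CPM. All 6 endothelial markers had a read, led by *Flt1* with 26, and the sum was 8.46, 74.3, 50.8, 0 and 54.1 CPM against 11.9, 22.4, 11.9, 37.9 and 59.7 CPM. The part of these cell types and of the spike-in share in the levels of the numbered *Zfp* genes was not tested, and in these sorted bulk samples fewer cells of a type and less RNA per cell cannot be told apart.

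Between the types, none of the 94 genes passed the test. With the animal as a block, the quasi-likelihood test of edgeR with Benjamini-Hochberg adjustment over 7409 genes called 0 of the 94 at an adjusted p of at most 0.1, beside 0.0% of all tested genes. At an unadjusted p under 0.05 there were 2 of the 94 (2.13%), both higher in *Fezf2−ve*, beside 288 of the tested genes (3.89%), made up of 168 (2.27%) with the *Fezf2−ve* level on top and 120 (1.62%) the other way. By DESeq2 with the block, 0 of the 94 and 98 tested genes (1.32%) were called. DESeq2 gave no adjusted p to some of the 94, among them *Zfp207*, *Zfp638* and *Zfp804b*, so these could not be called. In the DESeq2 fit 1 of the 94, *Zfp664*, had an unadjusted p under 0.05, beside 4.08% of the tested genes. Without the block, edgeR called 3 of the 94 (*Zfp536*, *Zfp664* and *Zfp740*), beside 279 tested genes (3.77%), and 17 of the 94 had an unadjusted p under 0.05, beside 18.2%. Each of the 3 genes called in that fit had over 95% of its reads in 1 library.

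Fitted log2 fold changes were spread on both sides of 0. They were above 0 for 38 genes and below 0 for 56 (59.6%, beside 54.3% of all tested genes), from −6.75 to 4.94, with a median of −0.24 and quartiles of −1.32 and 0.97. Over all tested genes the median was −0.16 and the quartiles −1.26 and 0.88. With *Zfp869* at its bound and the other 5 genes at 0 in *Fezf2+ve* left out, the median was −0.19. The median SE was 2.03 on the log2 scale, beside 1.78 over all tested genes. KRAB genes had a median of −0.42 with 26 of 44 below 0, and the others −0.23 with 30 of 50.

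The direction differed between animals. The mean log2 ratio of the types was taken with 10 CPM added to each level, which pulls the ratios of low genes towards 0. Over the 94 genes it was −0.52, 0.17, 0.10, −0.24 and −0.02 in animals 1 to 5, with an SD of 0.28. Over all tested genes it was −0.38, 0.24, −0.19, −0.18 and 0.07. In none of the 94 genes did the types not overlap, beside 1.04% of the tested genes (77). *Zfp442* alone was higher in the same type in 5 of 5 animals, with 1, 4, 2, 2 and 1 *Fezf2+ve* against 0, 0, 1, 0 and 1 *Fezf2−ve* reads. In animal 5 both libraries had 1 read, and the levels of 4.92 and 4.59 CPM differed through the library totals alone. Of all tested genes, 4.23% went 1 way in 5 animals. *Zfp442* was noted after its values had been seen and is 1 of the 4 genes that passed through *Fezf2+ve* libraries alone.

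**Figure D5:**
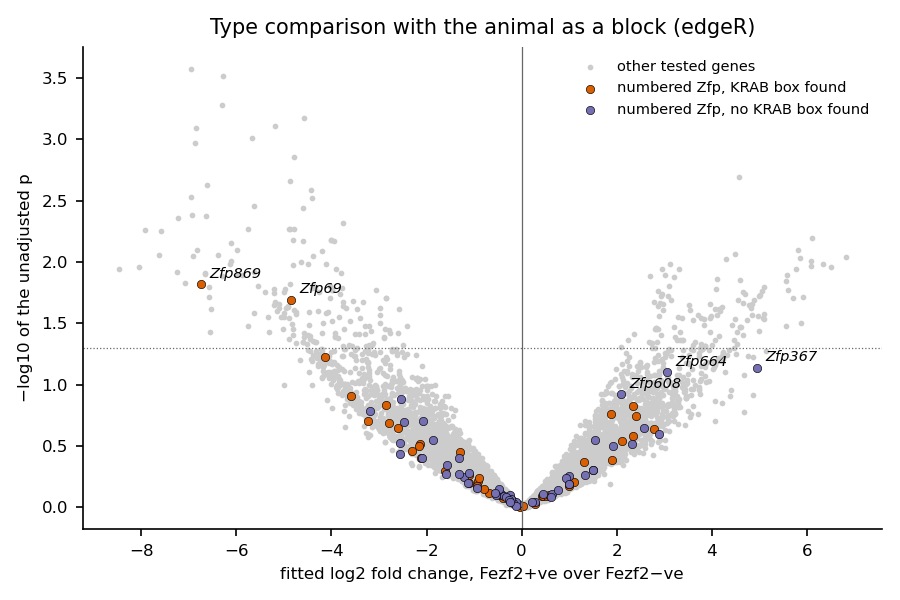
Fitted log2 fold change of *Fezf2+ve* over *Fezf2−ve* (x) against −log10 of the unadjusted p (y) for the 94 numbered *Zfp* genes, by whether a KRAB box was found, and for the other tested genes. Above the dotted line, an unadjusted p of 0.05, lie *Zfp869* and *Zfp69* on the *Fezf2−ve* side and no numbered *Zfp* gene on the *Fezf2+ve* side.

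The plot of fold change against p places *Zfp869* and *Zfp69*, both KRAB genes with higher counts in *Fezf2−ve*, above the dotted line, and *Zfp664* and *Zfp367* below it on the other side.

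*Zfp869* lies on chromosome 8 (69706332 to 69710724, minus strand), and its own role is not well known. It passed the filter through *Fezf2−ve* libraries alone, so it had to be higher there. It had 0 reads in each *Fezf2+ve* library and 2, 0, 0, 1 and 156 in *Fezf2−ve* libraries 1 to 5. The signal was thus *Fezf2−ve* library 5, and animals 2 and 3 had none in either type. Its level in *Fezf2+ve* was at least 6.48-fold lower than the *Fezf2−ve* mean of 147 CPM, against the mean limit of 22.6 CPM per library. The edgeR quasi-likelihood test with the block gave a log2 fold change of −6.75 (SE 2.41, unadjusted p = 0.0152, Benjamini-Hochberg adjusted p = 0.998, higher in *Fezf2−ve* in 3 of 5 animals). Without animal 5 the log2 fold change was −2.28 (SE 2.73) and its unadjusted p by edgeR was 0.435. DESeq2 with the block gave −2.16 (SE 2.20, unadjusted p = 0.325).

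*Zfp69*, a candidate gene for diabetes risk in obese mice, lies on chromosome 4 (120930137 to 120951699, minus strand). It had 0, 2, 0, 0 and 0 reads in the *Fezf2+ve* and 23, 55, 0, 0 and 1 in the *Fezf2−ve* libraries. *Fezf2−ve* libraries 1 and 2 were high, and the other 3 lay within the range of *Fezf2+ve*. The *Fezf2−ve* read rate was 32.3 times that of *Fezf2+ve* (95% counting interval 8.65 to 271). In the same edgeR test the log2 fold change was −4.86 (SE 1.86, unadjusted p = 0.0203, Benjamini-Hochberg adjusted p = 0.998, higher in *Fezf2−ve* in 3 of 5 animals). Without animal 1 it was −4.13 (edgeR, unadjusted p = 0.0991) and without animal 2 −4.55 (edgeR, unadjusted p = 0.0807), so that the size changed little while the p passed 0.05. DESeq2 with the block gave −2.87 (SE 1.93, unadjusted p = 0.137).

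On the *Fezf2+ve* side, *Zfp664* had a log2 fold change of 3.05 (SE 1.65, edgeR quasi-likelihood test, unadjusted p = 0.0793, higher in *Fezf2+ve* in 4 of 5 animals), between 1.93 and 4.08 when each animal was left out in turn. *Zfp367*, picked out after its values had been seen, had 79, 2, 0, 0 and 100 against 0, 0, 2, 0 and 1 reads. Its log2 fold change was the highest of the 94 at 4.94 (SE 2.58, unadjusted p = 0.0727 in that test), and *Fezf2+ve* libraries 1 and 5 carried it.

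*Zfp868* and *Zfp869* share part of their sequence. *Zfp868* lies within 100 kb of *Zfp869* on the same strand of chromosome 8 (69610857 to 69625548), their transcripts of 2259 and 1590 bases share 144 runs of 50 bases, and both had their maximum in *Fezf2−ve* library 5. Their longest shared coding run, in lower case throughout because no part of it is singled out, covers a stretch of 123 bases.
Zfp868_Zfp869: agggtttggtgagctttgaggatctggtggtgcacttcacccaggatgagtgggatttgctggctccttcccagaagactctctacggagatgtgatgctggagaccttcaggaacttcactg
Reads from such a run fit either gene. How many of the 2932 and 156 reads fell in shared sequence was not tested, since the deposited counts hold no positions.

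Other relatives shared more. *Zfp960* and *Zfp97* had 1907 runs of 50 bases in common, with 12 and 8 reads, and *Zfp808* and *Zfp934* had 846, with 100 and 40 reads. At least 100 runs were shared with some numbered *Zfp* gene by 11 of the 94, so the split of reads within these pairs is uncertain. *Zfp808* was highest in *Fezf2−ve* library 2 with 71 reads, and *Zfp934* in *Fezf2+ve* library 5 with 20.

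Some genes also overlapped a neighbour. Of the 94 genes, 13 overlapped another gene of the table, 11 of them on the opposite strand, and whether the authors counted by strand is not given in the sources used here, so reads of opposite genes cannot be told apart. In the library with the most reads of each of the 13, an overlapping gene had at most 10 reads. For *Zfp384* that was as many as its own 10, and over all libraries the overlapping *4930557K07Rik* had 133 reads against 21, while *Zfp950* and *Grk5* had 19 each. *Csad*, opposite *Zfp740*, had 2 reads beside 515. The counts of *Zfp384* and *Zfp950* are therefore uncertain.

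The partners of KRAB proteins were looked at in the same way. Of 24 genes of the Trim28 pathway and related silencing complexes, 24 matched a gene of the table and 16 passed the filter. By edgeR 0 of the 16 were called and 1 had an unadjusted p under 0.05, beside 0.0% and 3.89% of all tested genes. Log2 fold changes were above 0 for 3 and below 0 for 13, beside 54.3% below 0 over all tested genes. The median was −1.11, beside −0.16. *Fezf2−ve* library 3 held 99.1% of the reads of *Smarcad1* and 91.4% of those of *Fam208a*. *Cbx3*, *Chd4* and *Zmynd8* passed the filter through *Fezf2−ve* libraries alone and *Atf7ip* through *Fezf2+ve* libraries alone, so the selection fixed their direction. Whether the list differs from other genes was not tested. *Trim28* itself had 0, 0, 0, 0 and 9 against 1, 0, 0, 0 and 0 reads and was not tested. *Setdb1* had 1, 3, 0, 0 and 1 against 2, 1, 4, 3 and 0.

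In this list *Chd3*, a NuRD remodeller, had the smallest p. It had 0, 3, 1, 1 and 123 against 0, 0, 0, 0 and 5 reads, with 92.5% in *Fezf2+ve* library 5 (log2 fold change 4.11, SE 1.66, unadjusted p = 0.0270). *Morc3*, a chromatin ATPase that silences retroelements, had 1, 12, 2, 0 and 2 against 1, 188, 11, 1 and 57 (log2 fold change −2.97, SE 1.45, unadjusted p = 0.0544). Both overlapped between types. Over 50% of the reads lay in 1 library for 9 of the 16, beside 53 of the 94 numbered *Zfp* genes and 44.3% of all tested genes.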

How the data were processed

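RNA was amplified by PCR and then by in vitro transcription, and sequenced. The authors trimmed the reads, mapped them with TopHat2 2.1.1 to mm10, and deposited read counts per RefFlat gene and per ERCC transcript from bedtools 2.26.0, without normalization. Their table of DESeq2 1.10.1 fold changes and p-values was not used.

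The 7409 genes that reached 10 CPM in 2 or more libraries entered a quasi-likelihood fit in edgeR 4.0.16 (R 4.3.3) with TMM factors, animal as a block and type as the factor. A gene was called where its Benjamini-Hochberg adjusted p was at most 0.1. The common biological coefficient of variation was 1.19. Same-numbered libraries were taken as pairs from the same animal, following the study, since the labels give only the number. The deviations of paired libraries from the type means correlated across genes with r of 0.0941, −0.00400, 0.0670, 0.0221 and −0.0169. The edgeR and DESeq2 fits were tested on simulated counts.

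Named are genes with an unadjusted p under 0.05, the 8 with the most reads, those in 9 or 10 libraries, the 3 most confined to 1 library, those at the threshold, *Zfp169*, and genes of the role lists. Some marker results are not reported here. The members and lists were chosen with earlier results of these data known. Of 2 symbols ending in -ps, *Zfp862-ps* (109 reads in 10 libraries) was not counted as a numbered gene. Fingers and KRAB boxes were found by sequence pattern in GENCODE M21 coding sequences. Alternatives were no block, DESeq2 1.42.0, its size factors, no filter, a stricter filter (20 CPM in 3 libraries), downsampling to the smallest library, each animal left out and, added after seeing the data, library size only and the legacy quasi-likelihood method. Python 3.11.15, numpy 2.4.6, pandas 2.3.3, scipy 1.17.1 and matplotlib 3.10.9 were used for the rest.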

Additional observations from a re-analysis of the deposited data

Results flagged for a closer look

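Each value here is of a library that lay far from the other 4 of its type, by a gap of over 0.71 of the whole range of the 5. Chance does so for about 1 in 20 groups of normally distributed values, a rate that does not carry over to sparse counts. Here it was 22 of 56 groups (39.3%). Over all 94 genes, it was 89 of the 182 gene and type groups with any read (48.9%), of which 37 had reads in 1 library alone and so met the limit by construction.

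In *Fezf2+ve* library 1 these were the ERCC share, at 46.7%, and *Zfp207*, at 271 CPM. In *Fezf2+ve* library 2, *Zfp385b* was at 2741 CPM, *Zfp445* at 204 CPM and *Zfp69* at 18.6 CPM. *Fezf2+ve* library 3 stood out for *Zfp664* at 6488 CPM, *Zfp385a* at 2160 CPM, *Zfp532* at 838.5 CPM and *Zfp804b* at 127 CPM. *Fezf2+ve* library 5 did so for *Zfp280d* at 6048 CPM, *Zfp827* at 1023 CPM and *Zfp592* at 9.83 CPM, which was 2 reads.

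Among the *Fezf2−ve* libraries, library 1 was far above the others for *Zfp64* at 2817 CPM, library 2 for *Zfp69* at 617 CPM and library 3 for *Zfp407* at 35.6 CPM. Library 4 was so for *Zfp827* at 6671 CPM, *Zfp704* at 2824 CPM, *Zfp740* at 2437 CPM and *Zfp592* at 416 CPM. Library 5 was so for *Zfp868* at 13470 CPM, *Zfp536* at 5961 CPM and *Zfp869* at 716.5 CPM. All of these lay on the high side.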

How the results depend on the processing

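Without the animal block, that is, without the pairing, 3 of the 94 genes were called and 17 had an unadjusted p under 0.05, in place of 0 and 2, beside 3.77% and 18.2% of all tested genes. The 3 were *Zfp536* (log2 fold change −6.00) and *Zfp664* (6.89), each with a Benjamini-Hochberg adjusted p of 0.0931 by edgeR, and *Zfp740* (−6.95, adjusted p 0.0972). Under every other alternative 0 were called, although by DESeq2 some of the 94 had no adjusted p and could not be called. Genes with an unadjusted p under 0.05 numbered 4 with the legacy method (*Zfp69*, *Zfp869*, *Zfp367* and *Zfp729a*) and 3 with no filter (*Zfp69*, *Zfp869* and *Zfp367*). They numbered 1 by DESeq2 with the block (*Zfp664*), 1 with the stricter filter, which left 25 of the 94 (*Zfp729a*), and 1 to 4 with each animal left out. The median log2 fold change of the 94 stayed below 0 throughout, from −0.43 without animal 2 to −0.05 after downsampling. That of all tested genes also stayed below 0, from −0.34 to −0.06 under the same alternatives. Of the 94, 23 passed the threshold through *Fezf2−ve* libraries alone and 4 through *Fezf2+ve* libraries alone, so the selection fixed the direction of these. At least 5 CPM in 2 libraries gave 170 genes, 20 CPM in 2 libraries 46, and 10 CPM in 3 libraries 56.

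Of 290 log2 fold changes of 23 named genes under the alternatives, 265 kept their sign and 25, in 12 genes, reversed, and the cause was not tested. Without the block these were *Zfp280d* (4.83), *Zfp804b* (0.26) and *Zfp827* (−3.04). By DESeq2 they were *Zfp207* (−0.15) and *Zfp827* (−0.0914), and after downsampling *Zfp568* (0.33), *Zfp638* (0.0196) and *Zfp804b* (0.28). With each animal left out, the range was −0.95 to 1.96 for *Zfp207*, −1.42 to 0.50 for *Zfp280d*, −0.41 to 3.42 for *Zfp385b*, −0.71 to 0.36 for *Zfp532*, −1.12 to 0.68 for *Zfp536* and −0.43 to 0.21 for *Zfp568*. It was −0.73 to 0.38 for *Zfp638*, −6.61 to 0.46 for *Zfp64*, −2.77 to 0.19 for *Zfp704*, −2.03 to 0.63 for *Zfp740*, −0.64 to 0.24 for *Zfp804b* and −1.55 to 1.92 for *Zfp827*.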

Other observations

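*Zfp862-ps*, whose suffix marks a pseudogene, had a read in every library. It had 2, 8, 5, 4 and 12 reads in the *Fezf2+ve* and 21, 13, 23, 17 and 4 in the *Fezf2−ve* libraries, or 109 reads, of which *Fezf2−ve* library 3 held 21.1%. The *Fezf2−ve* library was higher in animals 1 to 4 and lower in animal 5, and the types overlapped. Its log2 fold change was −1.10 (SE 1.09, edgeR quasi-likelihood test, unadjusted p = 0.324). It was picked out after its values had been seen.

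*Zfp42* (Rex1), a marker of pluripotent stem cells, was also picked out after its values had been seen. It had 0, 2, 0, 1 and 1 reads in the *Fezf2+ve* and 0, 0, 3, 0 and 10 in the *Fezf2−ve* libraries, so that *Fezf2−ve* library 5 held 58.8% of 17 reads. *Zfp746* (Paris), a substrate of parkin, had 0, 0, 4, 91 and 2 against 2, 0, 0, 0 and 1, with 91.0% in *Fezf2+ve* library 4.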
